A study of Mus musculus with 6 samples.

Results

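Eif4ebp2 encodes an eIF4E-binding protein, a repressor of translation, and its mRNA carried a series of sites along the 3′ UTR that were recovered more with the ZFP36L2 antibody than with control IgG in mouse Leydig tumour cells, by up to 63.1-fold in the authors' deposited table. All peaks named Eif4ebp2 in the authors' deposited table were taken, which gave 16 peaks among 55449. Of these, 12 lay in the 3′ UTR and 4 in introns, as classed in that table. The gene was selected on the deposited fold changes and adjusted p-values of these same peaks, so they are given as a description and not as a test.

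The cells were MLTC-1, a mouse Leydig cell tumour line, crosslinked with ultraviolet light. eCLIP, in which RNA fragments linked to a protein are pulled down with an antibody and sequenced, was made with an antibody against ZFP36L2 (2 immunoprecipitation libraries and 2 matched inputs) and with rabbit IgG as negative control (1 library and 1 input). All 6 libraries came from this line with the same crosslinking, and the labels do not say whether they came from separate cultures, so any spread behind the p-values may be technical. The deposited values are 1 log2 fold change, 1 p-value and 1 adjusted p-value per peak for ZFP36L2 over IgG, a direction taken from the table's name. With no value per library, no depth, spread or standard error can be given, and the IgG arm rests on a single immunoprecipitation. Of 14 Leydig cell markers, 9 had a peak, among them Star, Cyp11a1, Lhcgr and Nr5a1, whereas Cyp17a1, Hsd3b1, Hsd3b6, Hsd17b3 and Insl3 had none. Peaks were also present for 2 of 6 Sertoli cell, 1 of 4 germ cell and 4 of 4 macrophage markers.

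eIF4E-binding proteins hold the cap-binding factor eIF4E and keep it from joining the scaffold eIF4G, which lowers cap-dependent initiation of translation. The kinase complex mTORC1 phosphorylates them, and they then let eIF4E go. ZFP36L2 is a CCCH zinc finger protein of the tristetraprolin family, known to bind AU-rich elements in 3′ UTRs and to recruit deadenylases to the bound mRNA.

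Eif4ebp2 lies on the minus strand of chromosome 10, from 61428491 to 61452790 in the RefSeq annotation of GRCm38.p6 (mm10), and all 16 peaks fell inside it. Numbered from the 5′ side, peaks 1 to 4 were intronic and peaks 5 to 16 belonged to the 3′ UTR. The 3′ UTR peaks spanned 2207 nucleotides, from 61429577 to 61431783, and covered 623 of them (28.2%). The peak nearest the 3′ end stopped 1086 nucleotides short of the end of the RefSeq gene. No peak was classed as coding or 5′ UTR.

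Calls required an adjusted p under 0.05, with a log2 fold change no smaller than 1 for a peak higher with ZFP36L2 and no larger than -1 for a lower one. Of the 12 peaks in the 3′ UTR, 11 were called higher, none was called lower, and all 12 had a log2 fold change above 0. The adjusted p-values of the 11 ran from 3.6e-29 to 5.1e-06 in the authors' deposited table. Over all 3′ UTR peaks of the table, 1.46% were called higher and 4.83% lower, and over all peaks 2.22% were called higher and 5.44% lower. The median log2 fold change of the 12 was 4.72 in the authors' deposited table, against -1.08 over the 7537 peaks of all 3′ UTRs. The deposited scale itself sat low, with a median of -1.06 over all peaks, and relative to that median the 12 peaks stood at 5.78 (log2).

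The 5′-most peaks of the 3′ UTR formed a touching run of 3 at 61431638 to 61431783, in which the log2 fold changes were 4.62, 5.49 and 5.65 from 5′ to 3′ in the authors' deposited table. The run was 146 nucleotides long, and its values differed by 1.03 on the log2 scale from lowest to highest. The middle peak had the smallest adjusted p of the run, 6.6e-22 in the authors' deposited table. A gap of 605 nucleotides without a peak followed, the widest between the peaks of this 3′ UTR.

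The largest values of the gene, 5.98 in peaks 9 and 10, came after it. For peak 8, at 61431007 to 61431032, the authors' deposited table gave a log2 fold change of 4.50 with adjusted p = 1.9e-09. Peak 9, at 61430815 to 61430915, was the longest of the gene at 101 nucleotides and the best supported. The authors' deposited table put its log2 fold change at 5.98, a 63.1-fold difference, with adjusted p = 3.6e-29. By adjusted p it ranked 104 among all peaks of the table and 3 among 3′ UTR peaks, where both peaks ahead of it were in Pde5a and lower with ZFP36L2. Peak 10, at 61430607 to 61430633, had the same log2 fold change of 5.98 over 27 nucleotides, where the authors' deposited table gave adjusted p = 7.4e-18.

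The lowest values of the 3′ UTR sat beside high ones. Peak 11 touched peak 10 on its 3′ side and stood at 3.56, which is 2.42 lower on the log2 scale, in the authors' deposited table. Peak 13, at 61430229 to 61430293, touched peak 12 in the same way, with 1.85 against 3.77 in the authors' deposited table. Peak 13 was the only 3′ UTR peak of the gene that was not called (adjusted p = 0.055 in the authors' deposited table), although its fold change passed the threshold. Values of neighbours thus differed by 0.16, 0.87, 1.92 and 2.42 on the log2 scale over the 4 touching pairs of this 3′ UTR. Over the 1759 touching pairs in all 3′ UTRs the median difference was 0.34 and the 90th percentile 1.25, so both of the larger steps lay beyond that percentile.

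The 4 lowest values of the 3′ UTR lay on the 3′ side of the midpoint of the covered stretch. The median log2 fold change was 5.49 over the 5 peaks before that midpoint and 4.04 over the 7 peaks after it, as computed from the authors' deposited table. In the authors' deposited table, peak 14 (61430073 to 61430103) stood at 4.81 and peak 15 (61429765 to 61429816) at 4.04 on the log2 scale, the latter with the weakest support of the called peaks (adjusted p = 5.1e-06). The last one, peak 16 (61429577 to 61429645), stood at 5.89, the authors' deposited table giving adjusted p = 1.3e-17. Log2 fold changes above 5 were found near both ends and in the middle of the covered stretch. Across the 12 peaks, Spearman's rho of the log2 fold change with the position from 5′ to 3′ was -0.21, and with peak length -0.07. These correlations describe 12 neighbouring sites measured in the same libraries, and touching peaks are not independent.

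**Figure D1:**
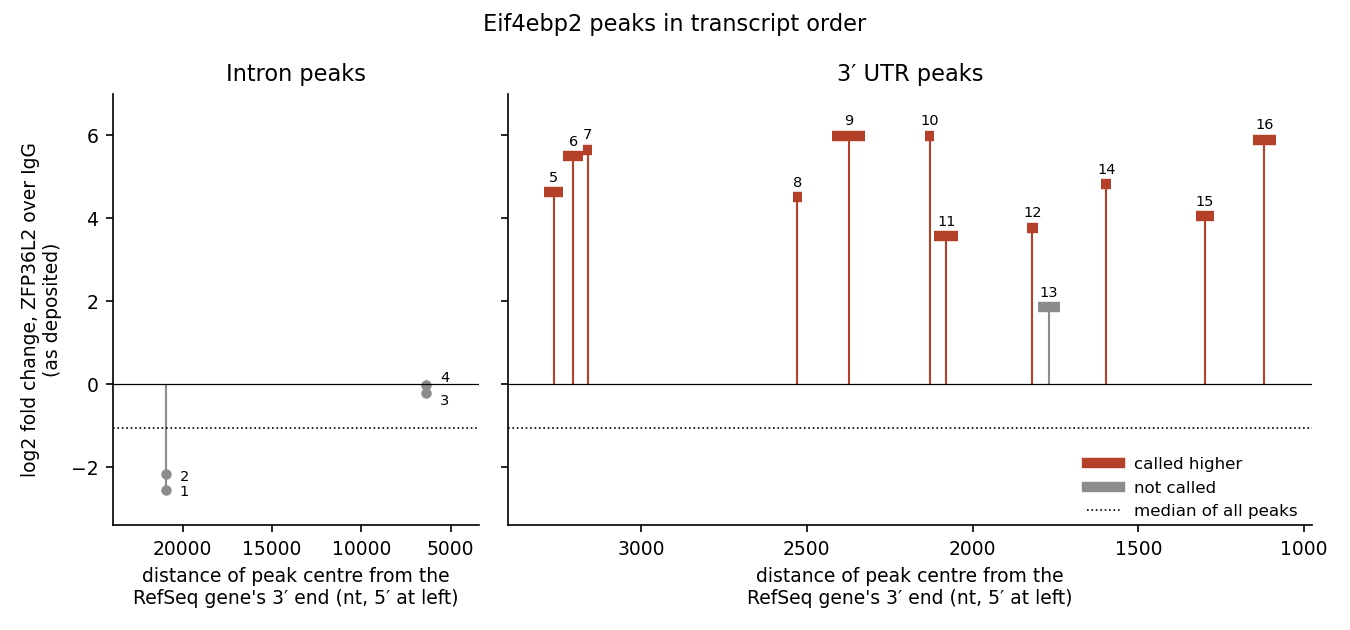
Log2 fold change of ZFP36L2 over IgG (vertical axis, as deposited) for the 16 Eif4ebp2 peaks, numbered from 5′ to 3′, against the distance of each peak's centre from the 3′ end of the RefSeq gene in nucleotides (horizontal axis, with another scale in each panel). Bars in the right panel have the width of the peak, points in the left panel mark intronic peaks, red marks peaks called higher and the dotted line is the median of all peaks, -1.06. The 12 peaks in the 3′ UTR lie between 1.85 and 5.98, and the 4 intronic peaks between -2.55 and -0.01.

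The intronic peaks of the same gene did not share these values. Peaks 1 and 2 touched, at 61449428 to 61449477, and the authors' deposited table put them at -2.55 and -2.17 on the log2 scale. Peaks 3 and 4 touched as well, at 61434844 to 61434885, and stood at -0.21 and -0.01 per the authors' deposited table. Of these 4 peaks, none was called in either direction, and the authors' deposited table gave adjusted p-values of 0.24, 0.69, 1 and 1. The lowest 3′ UTR value, 1.85, lay above all 4. Over all intronic peaks of the table, 2.17% were called higher and 7.04% lower. Relative to the median of all peaks, peaks 3 and 4 stood at 0.85 and 1.05 (log2), so their sign depends on the centring, whereas peaks 1 and 2 stayed below 0 at -1.49 and -1.11.

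The distance between both classes was set against that of other genes with at least 3 peaks in the 3′ UTR and 3 in introns. In Eif4ebp2, the median of the 3′ UTR peaks (4.72) exceeded that of the intronic peaks (-1.19) by 5.91 on the log2 scale, as computed from the authors' deposited table. Among 311 such genes the median difference was 0.19, with quartiles of -0.58 and 1.10, and Eif4ebp2 ranked 1. The next was Mtpn, which encodes myotrophin, at 5.23, followed by Hipk2, a nuclear kinase gene, at 5.06. The comparison uses the values by which the gene was chosen, so its rank is a description and was not tested. The intronic median of Eif4ebp2 rests on 2 touching pairs, at -2.55 and -2.17 and at -0.21 and -0.01, with no peak near it.

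**Figure D2:**
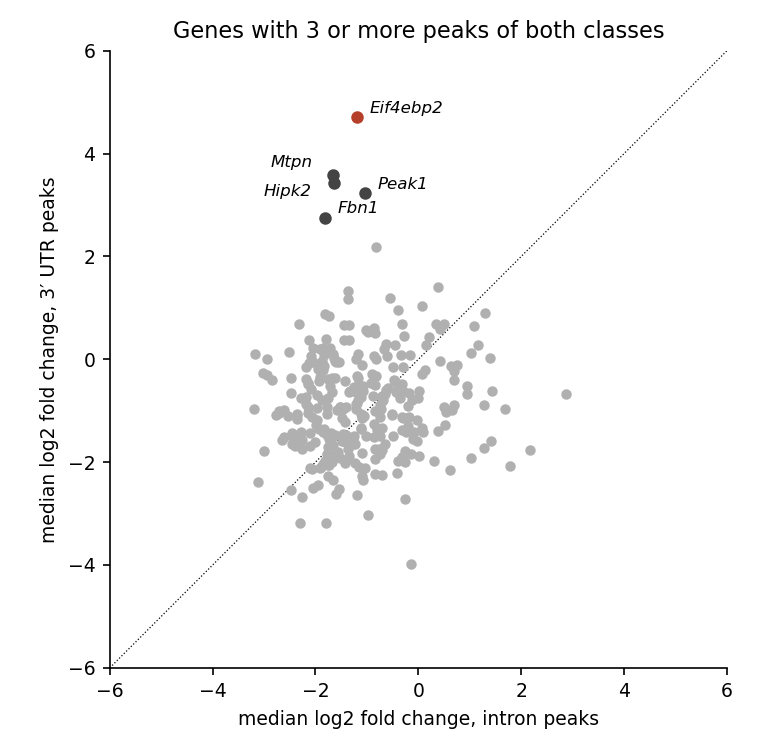
Median log2 fold change of the 3′ UTR peaks (vertical axis) against that of the intronic peaks (horizontal axis), both as deposited, for 311 genes with 3 or more peaks of both classes. Each point is a gene, the dotted line marks equal medians, and the 5 genes with the largest difference are named. Eif4ebp2, in red, is at -1.19 for introns and 4.72 for the 3′ UTR.

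Eif4ebp2 had more 3′ UTR peaks called higher than any other gene of the table. Its 11 called peaks were 10.0% of the 110 peaks called higher in 3′ UTRs, which fell in 75 genes. The called peaks of the other genes, 99 in number, had a median log2 fold change of 3.20, against 4.81 for those of Eif4ebp2, as computed from the authors' deposited table. Of the 10 peaks in 3′ UTRs with a log2 fold change of 5 or more, 5 were those of Eif4ebp2, and the others included peaks of Sec63 (6.72), Hipk2 (6.44 and 6.30) and Bsg (6.22) in the authors' deposited table. No other gene had a 3′ UTR peak between 5 and 6 on the log2 scale, the range in which peaks 6, 7, 9, 10 and 16 lay. That range was taken with these values in view, and the peaks of Sec63, Hipk2 and Bsg named above lay beyond it. By the number of 3′ UTR peaks called higher, Peak1, which encodes a cytoskeletal pseudokinase, followed with 6 of 6 and Hipk2 with 4 of 6.

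**Figure D3:**
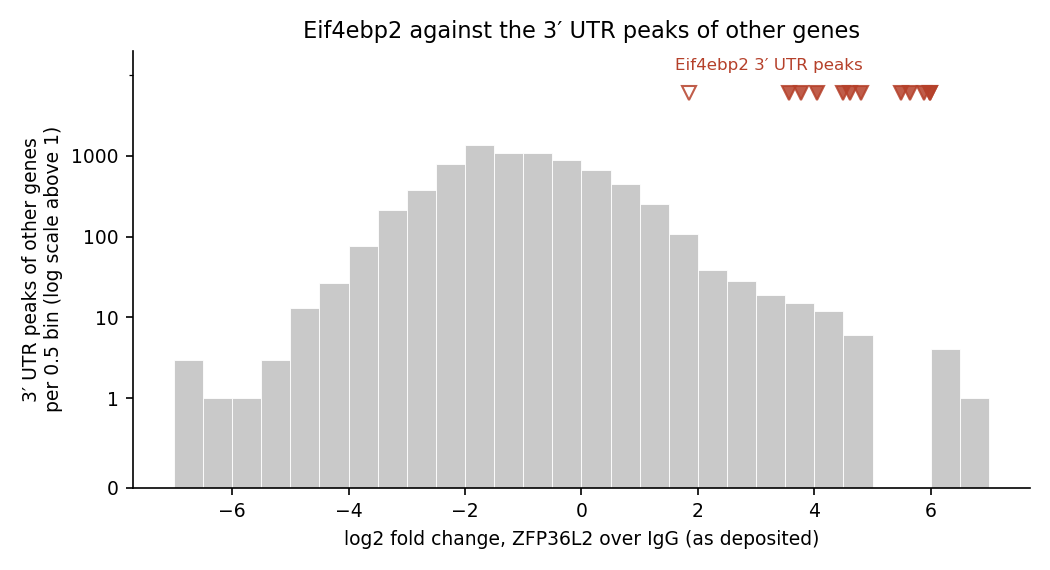
Number of 3′ UTR peaks of other genes (grey bars, vertical axis on a log scale above 1) by log2 fold change of ZFP36L2 over IgG as deposited (horizontal axis). Triangles mark the 12 peaks of the Eif4ebp2 3′ UTR at their log2 fold change, filled where called higher and open where not, and their height has no meaning. No grey bar stands between 5 and 6, where 5 Eif4ebp2 peaks lie, whereas the bars above 6 hold 4 and 1 peaks of other genes.

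The number of peaks alone did not set this gene apart, since 8 genes had more than 12 peaks in the 3′ UTR. The genes most like it were sought among the 52 gene names with at least 8 such peaks, by the difference in their median. The nearest was Emp1, which encodes an epithelial membrane protein, with a median of 1.26 over 8 peaks, which is 3.46 below Eif4ebp2 on the log2 scale. It was followed by Fstl1, a secreted follistatin-like glycoprotein (1.03), Srl, the calcium-binding protein sarcalumenin of muscle (1.02), Pln, phospholamban, the regulator of the sarcoplasmic calcium pump (0.81), and Lox, lysyl oxidase, which crosslinks collagen (0.64), as computed from the authors' deposited table. None of these 5 had more than 1 peak called higher in its 3′ UTR. Of the 52, Eif4ebp2, Pln and Lox were the 3 in which every 3′ UTR peak had a log2 fold change above 0 on the deposited scale. With at least 5 peaks per gene in place of 8, a setting added once the values were known, the nearest gene was Hipk2 with a median of 3.42, and the gap narrowed to 1.30.

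**Figure D4:**
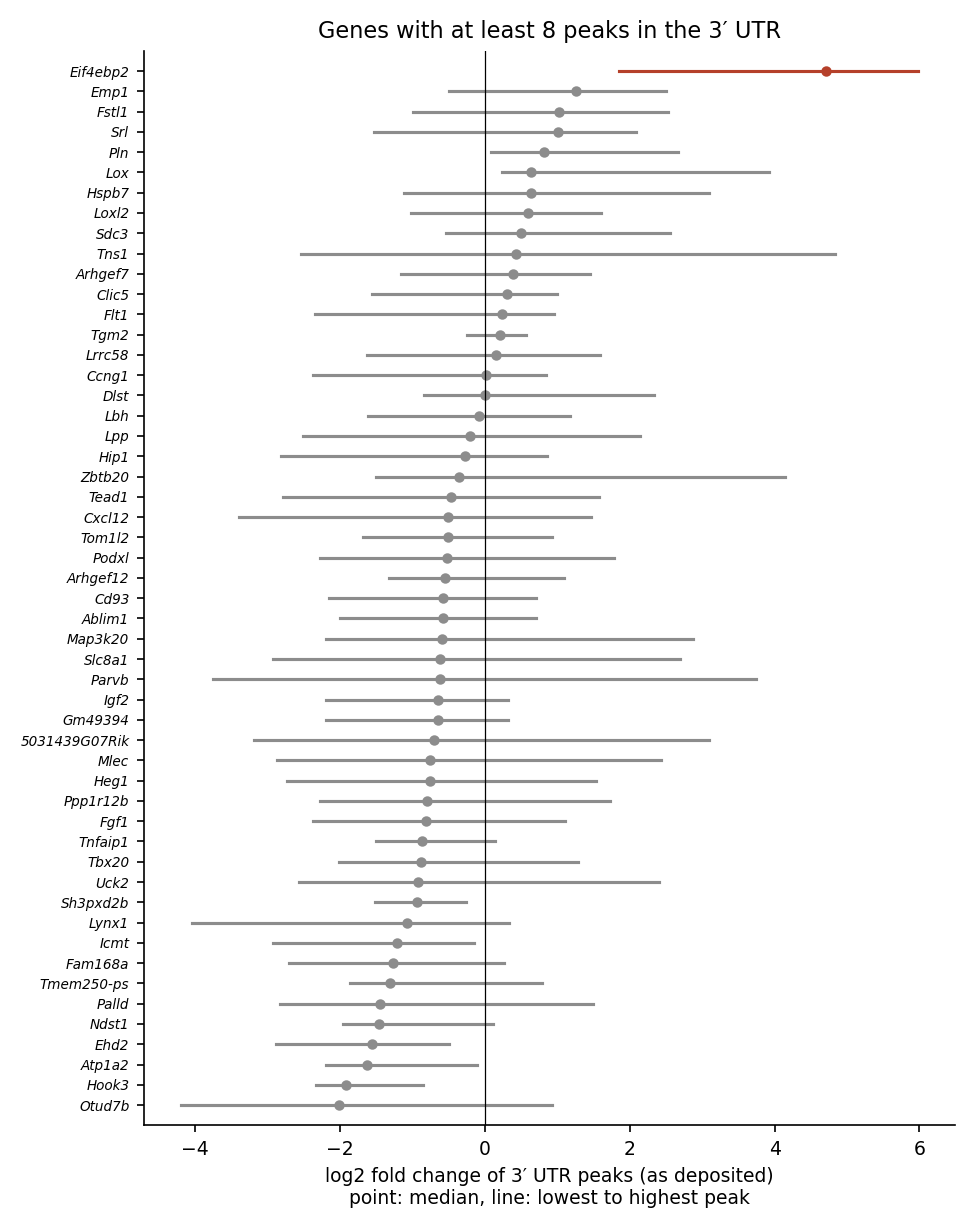
Log2 fold change of 3′ UTR peaks as deposited (horizontal axis) for the 52 gene names with at least 8 peaks in the 3′ UTR (rows, ordered by median). Points are medians and lines run from the lowest to the highest peak, which is a range over sites and not an error. Eif4ebp2, in red, has its median at 4.72 and its lowest peak at 1.85, above the medians of all other genes shown.

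The other genes of the family had no peak called higher, but they had only 2 peaks between them. Over all peaks, 2.22% were called higher and 5.44% lower, so 2 peaks would seldom hold a higher call. Eif4ebp1, which encodes the paralogous eIF4E-binding protein, had 2 peaks. The coding one had a log2 fold change of -0.62 and was not called. The other, at 27276492 to 27276528 on chromosome 8, was called lower, and the authors' deposited table gave it -2.81 with adjusted p = 2.6e-04. This second peak is classed as 3′ UTR in the table but began 836 nucleotides past the end of the gene in RefSeq. Eif4ebp3, the third member of the family, had no peak and so could hold no call.

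Other genes of cap-dependent initiation and mTORC1 signalling were taken from a list of 36 genes drawn up from textbook knowledge, of which 33 had a peak. Eif4ebp2 aside, 2 of the 32 genes (6.25%) had a peak called higher and 9 (28.1%) a peak called lower. Over all genes with a peak, 5.04% had one called higher and 17.3% one called lower. At the level of peaks, 2 of 220 (0.909%) were higher and 13 (5.91%) lower, with a median log2 fold change of -0.72, against -1.06 over all peaks. Both medians pool transcript regions, whose shares were not matched. Of the 31 peaks that these genes had in 3′ UTRs, 3 were called lower and none higher, beside 4.83% lower and 1.46% higher over all 3′ UTR peaks (at such shares, 31 peaks would hold few calls). The log2 fold changes of these 31 peaks ranged from -4.97 to 1.79, with a median of -0.36, as computed from the authors' deposited table. Over all 3′ UTR peaks the median was -1.08.

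Among the factors that eIF4E-binding proteins act on, Eif4e, the cap-binding protein, had 3 peaks and was called lower in an intron, at -3.38 with adjusted p = 0.0016 per the authors' deposited table. Eif4g1, the main scaffold of the cap-binding complex, had 1 of 13 peaks called higher, in an intron, at 2.58 with adjusted p = 0.012 per the authors' deposited table. Its paralogue Eif4g3 had 1 of 15 called lower, at -3.38, and Eif4g2, a related scaffold that lacks the eIF4E site, had 2 of 14 called lower, which touched in the 3′ UTR, at -3.53 and -4.97, in the authors' deposited table. The third 3′ UTR peak of Eif4g2 stood at 0.76 and was not called, and the median over its 14 peaks was 0.40 in the authors' deposited table. Pabpc1, the poly(A)-binding protein that joins the mRNA's tail to eIF4G, had a coding peak called higher (3.57) and another called lower (-3.16) in the authors' deposited table. Eif4a1, Eif4a2 and Eif4b, the helicases and their cofactor, had no called peak. Over all peaks, 2.22% were called higher and 5.44% lower. With so few peaks per gene, these calls are a description and were not tested.

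Upstream, Mtor had 12 peaks and none was called. Rptor, the mTORC1 scaffold subunit, had 1 of 24 called lower, at -3.67, and Tsc2, the inhibitor of the pathway, had 3 of 17 called lower, all intronic, down to -4.34, in the authors' deposited table. The mTORC1 substrate kinase gene Rps6kb1 had 2 touching intronic peaks called lower, at -3.48 and -4.10, and Rps6, the ribosomal protein that this kinase phosphorylates, had 1 intronic peak called lower at -2.74, in the authors' deposited table. Rictor, Tsc1, Rheb, Deptor and Akt1s1 had peaks but no called one. The share called lower was 5.44% over all peaks and 7.04% over intronic peaks. The calls of these genes are listed beside those shares as a description, and no trend along the pathway was tested.

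**Figure D5:**
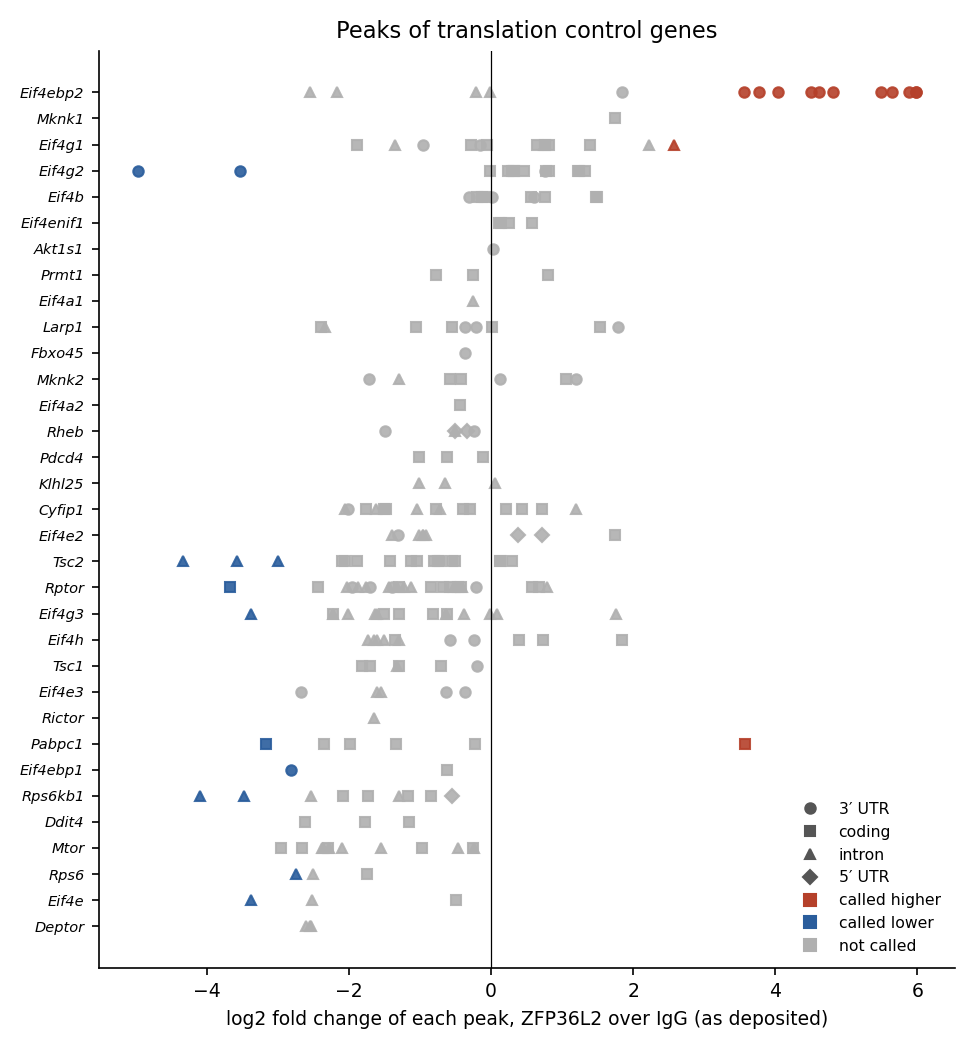
Log2 fold change of ZFP36L2 over IgG as deposited (horizontal axis) for every peak of the 33 translation control genes with a peak (rows, ordered by median). The marker shape gives the transcript region and the colour the call. The row of Eif4ebp2 holds 11 of the 13 peaks called higher, and the remaining 2 belong to Eif4g1 and Pabpc1.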

How the data were processed

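STAR 2.7.7a, UMI-tools 1.1.1, DESeq2 1.34.0 and cutadapt 3.2 are named, with the build mm10, per the submitters' processing notes. No source used here states the peak caller, whether libraries were pooled, the part of the inputs, the normalization or the model behind the p-values. In the table that the authors deposited, the fold change of a peak is a log2 value, and its p-value and adjusted p-value are −log10 values, turned back into probabilities here. Adjusting the p-values by Benjamini-Hochberg across the 55449 peaks gave the authors' adjusted values to within 0.0099 (−log10 units).

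No test was run here, and calls rest on the deposited values. Peaks that touch were also joined into stretches. Starts were converted to 1-based positions. The code of the calling and joining steps was checked on made-up data with planted calls, which says nothing about the calls made here. Python 3.11.15, pandas 2.3.3 and matplotlib 3.10.9 were used. Of 10818 gene names, 95.5% were symbols in RefSeq (GRCm38.p6). A peak with several names counted for each, and no Eif4ebp2 peak had several. Genes were named by their call or, for the genes most like Eif4ebp2, as the 5 with the nearest median. Mtpn, Hipk2, Peak1, Sec63, Bsg, Pde5a and the uncalled genes of the list were named with their values in view. The gene and the lists were chosen with earlier results of these data known. Genome sequence was not used here, so no peak sequence is shown and the planned count of AU-rich letters was not made. Some items are not reported here.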

Additional observations from a re-analysis of the deposited data

How the results depend on the processing

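Every Eif4ebp2 peak called higher had adjusted p at most 5.1e-06 and log2 fold change at least 3.56 in the authors' deposited table. Given these values, the stricter thresholds used here could remove no call. The number of Eif4ebp2 peaks called higher was 11 at an adjusted p under 0.01 and at a fold change threshold of 2 on the log2 scale, and 8 of 10 stretches when touching peaks were joined. It was also 11 after centring on the median of all peaks, with 3′ UTR peaks alone and with peaks of a single name, settings that by construction could lose no such call, since centring raises every value, no intronic peak was called higher and no Eif4ebp2 peak has several names. None was called lower under any of these, which was fixed beforehand as well, since no Eif4ebp2 peak below 0 had an adjusted p under 0.05. The median of the 16 log2 fold changes was 4.27, and it was 5.33 after centring, 4.66 with touching peaks joined and 4.72 over 3′ UTR peaks alone. The gap to the next gene's median over 3′ UTR peaks, 3.46 with at least 8 peaks per gene, was 1.30 with at least 5 peaks per gene (278 genes) and 3.67 with touching peaks joined (27 genes), both added once the data had been seen. In the list of translation control genes, whose settings were added likewise, 3 of the 33 genes with a peak had one called higher, Eif4ebp2 among them. At an adjusted p under 0.01 they numbered 2, Eif4ebp2 and Pabpc1. Those with a peak called lower numbered 9, or 7 at an adjusted p under 0.01. Over all genes with a peak, 5.04% had one called higher and 17.3% one called lower at an adjusted p under 0.05. The share over all genes was not computed at 0.01. The count of AU-rich letters, with its wider window of 50 bases, was not run. No paired analysis was possible because the deposited table holds no value per library. Depth is unknown, so what it limits cannot be stated.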
